A study of Homo sapiens with 5 samples.

Results

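The p53 pathway genes described here are 33 genes that the tumour suppressor p53 switches on or works with when cells meet DNA damage and other stress. They were chosen by name, and every intron listed under one of these names in 3 deposited tables of intron retention was taken if the depth inside it and the reads spliced across it summed to 10 or more in each of the table's libraries. That gave 92 distinct introns of 33693 in all, from 24 of the 33 genes. The WBP11 RNAi table held 48 of them among 16068 introns (17 genes), while 67 of 23366 (21 genes) were held for SNW1 RNAi and 66 of 21828 (21 genes) for WBP11 auxin. No intron of the 33 genes was left out by the depth minimum. No intron was listed under the names MDM4, TP53INP1, ZMAT3, PHLDA3, TIGAR, PPM1D, RPS27L, TRIAP1 or BID, so these 9 genes were not analysed here, with 1 exception given below for TIGAR.

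PolyA RNA was sequenced from DLD-1 cells, an established human colorectal adenocarcinoma line. All 5 libraries come from a DLD-1 derivative that the labels call DLD-1 LacZeo, grown for fewer than 10 passages, and each group is 1 library. DLD-1 LacZeo cells were given WBP11 siRNA or SNW1 siRNA at 100 nM for 72 h, and were set against 1 shared control library of DLD-1 LacZeo cells, for which the labels name no treatment and the tables' headers say control RNAi. In the auxin pair, cells that carry the plant auxin receptor osTIR1 and a WBP11 transgene with a degron tag, their own WBP11 being knocked out, received 500 µM auxin for 48 h, and their control was DLD-1 LacZeo osTIR1 cells under the same auxin. The labels give both auxin libraries the same genotype, the tagged transgene is named only in the study's design text, and the labels do not say whether either line is a single clone. WBP11 is a splicing factor that binds other spliceosome proteins, and SNW1, also called SKIP, is a component of the active spliceosome.

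p53 is a transcription factor. Among its best known targets are CDKN1A, which encodes the cell cycle inhibitor p21, MDM2, the ubiquitin ligase that degrades p53 in turn, death genes such as BAX, BBC3, FAS and TNFRSF10B, and repair genes such as DDB2 and XPC. Many of these genes also respond to stress signals that do not pass through p53.

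Each value is an intron retention ratio, printed as a percent, which estimates how much of a gene's RNA still holds that intron. The ratio sets the read depth inside the intron against that depth plus the reads spliced across its ends. Ratios carry Wilson 95% intervals and differences carry Newcombe 95% intervals, where the observations are the depth and the spliced reads added together. These intervals treat that sum as a count of reads, although the depth is a coverage signal, so they only approximate counting error. They cover no other error. With 1 library per group there is no replicate check, no test and no p-value, and "rose" or "fell" means a difference of at least 10 percentage points between the 2 libraries. The tables list an intron only if its ratio reached 1% in at least 1 of the 2 libraries. The knockdowns themselves were seen in the spliced reads of the targeted genes, which were 20 for WBP11 after WBP11 RNAi and 312 in the control, and 31 for SNW1 after SNW1 RNAi and 401 in the control. WBP11 had 103 spliced reads in the WBP11 auxin library and 235 in the auxin control, which says nothing of the protein that auxin removes. Of 10 colon epithelium markers, 4 were listed in the WBP11 RNAi table and 5 in each of the others, among them KRT18, KRT19, CDH1 and CDH17. Their summed spliced reads were 39171 after WBP11 RNAi and 47906 in the control, 83896 after SNW1 RNAi and 284222 in the control, and 18063 after WBP11 auxin and 28308 in the auxin control, and their part in the results was not tested. These sums are unscaled and cover only the introns that each table lists. KRT8 was listed in the SNW1 RNAi table alone and CDX2 in the WBP11 auxin table alone. The sums of 47906 and 284222 come from the same control library, so sums cannot be compared between tables. No fibroblast or leukocyte marker was listed in any table.

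Retention of p53 pathway introns rose in a few introns of a few genes, and no member intron fell by 10 points in any of the 3 comparisons. WBP11 RNAi raised 4 of 48 introns (8.33%), each in a different gene (FBXW7, FDXR, PLK3 and TNFRSF10B), where 9.07% of all introns tested rose. SNW1 RNAi raised 10 of 67 introns (14.9%) in 8 genes, where 16.6% of all introns rose. WBP11 auxin raised 4 of 66 introns (6.06%) in DDB2, FDXR and TNFRSF10B, where 13.8% of all introns rose. The members' share lay near the background after both siRNAs and below it after auxin. Falls of at least 10 points made up 1.69%, 0.359% and 1.37% of all introns tested after WBP11 RNAi, SNW1 RNAi and WBP11 auxin. Altogether 14 of the 92 introns, in 8 genes, rose at least once, 3 of them in more than 1 comparison and 1, in TNFRSF10B, in all 3. Only 32 of the 92 were measured in all 3 tables, and 35 were in 1 table alone. The siRNA comparisons also share their control, and the same counts were not taken over all introns, so no overlap is read from them.

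In the 2 WBP11 depletions the median member intron was below its control, while the median of all introns was above it. The median difference between depleted and control was -0.899 points for the members and 0.756 points for all introns after WBP11 RNAi, and -0.417 against 1.45 points after WBP11 auxin. After SNW1 RNAi it was 2.82 points for the members and 2.63 points for all introns. Retention was above the control in 21 of 48 member introns after WBP11 RNAi (43.8%, where 59.6% of all introns were), in 52 of 67 after SNW1 RNAi (77.6%, where 91.3% were) and in 30 of 66 after WBP11 auxin (45.5%, where 72.8% were). PLK2 and PLK3 supply 17 of the introns after WBP11 RNAi, 19 after SNW1 RNAi and 18 after WBP11 auxin, and introns of 1 gene share its RNA. Without PLK2 the members' median was 0.642 points after WBP11 RNAi, 3.06 points after SNW1 RNAi and 0.130 points after WBP11 auxin.

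**Figure D1:**
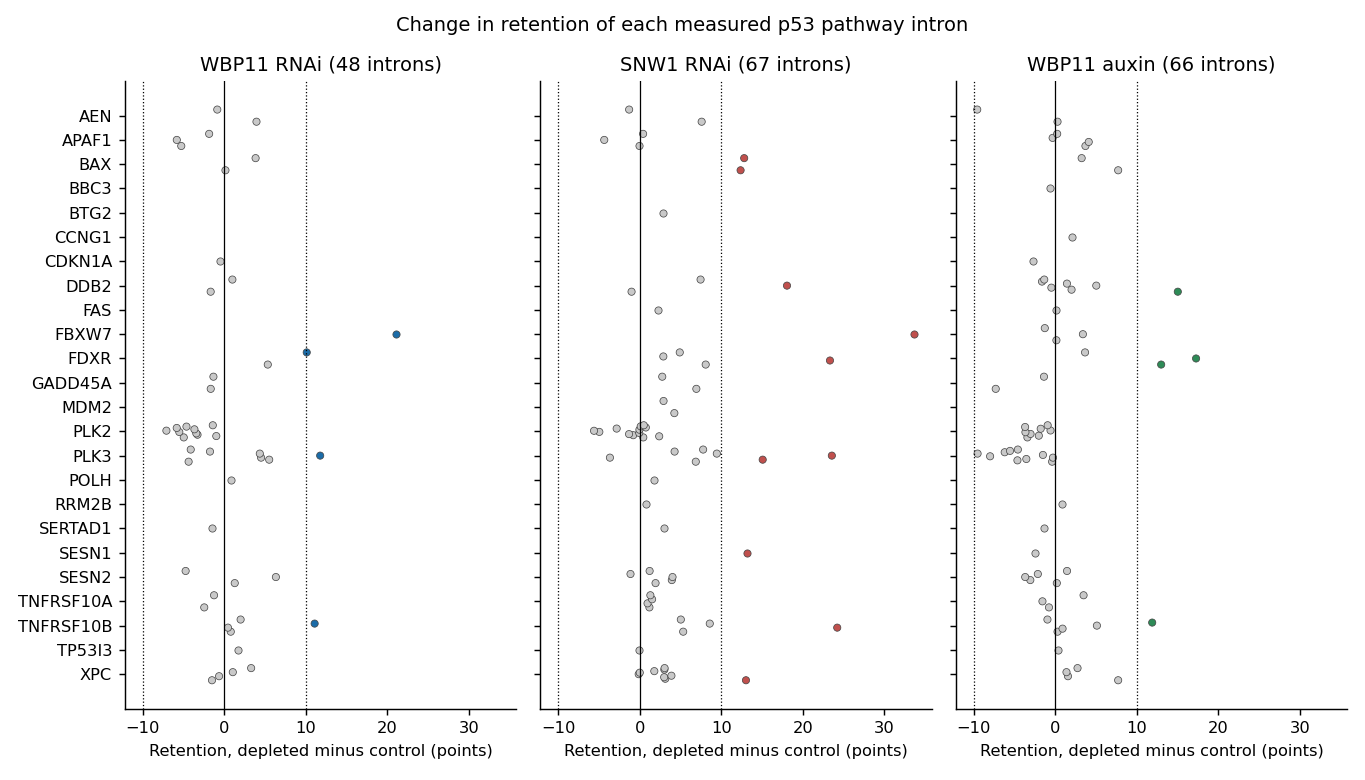
Difference in retention, depleted minus control, in percentage points, for each measured intron of the p53 pathway genes, with 1 panel per comparison and 1 point per intron, spread vertically within a gene in order of coordinate. Coloured points are the 4, 10 and 4 introns past the dotted line at 10 points, no point lies past the dotted line at -10, and the PLK2 points sit left of 0 after WBP11 RNAi and WBP11 auxin.

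Short introns rose more often than longer ones, among the members as among all introns tested. Among members of up to 150 bp, 3 of 15 rose after WBP11 RNAi, where 15.5% of all introns of that length rose. The counts were 6 of 19 after SNW1 RNAi, where 24.6% rose, and 2 of 18 after WBP11 auxin, where 30.0% rose. Among members over 150 bp, 1 of 33 rose after WBP11 RNAi, 4 of 48 after SNW1 RNAi and 2 of 48 after WBP11 auxin. Of all introns over 150 bp, 6.81%, 14.1% and 8.15% rose in the same order. All but 3 of the 92 introns lie between coding exons. An exon of an annotated transcript spans 15 of them, and 7 of these carry the tables' own mark for a known exon. Among members with that mark, 3 of 7 rose after WBP11 RNAi (19.3% of all introns with the mark), 3 of 5 after SNW1 RNAi (35.4%) and 1 of 5 after WBP11 auxin (24.8%). Of the raised introns without the mark, BAX intron 2 and DDB2 intron 1 are also spanned by an annotated exon. Reads of such an exon count as retention of the intron, so these introns can change through the choice between annotated transcripts.

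Death receptor and apoptosis genes held the intron that rose in every comparison. TNFRSF10B encodes the receptor DR5, which binds the death ligand TRAIL. Its 87-bp intron at hg38 chr8:23028442-23028528, on the minus strand, is intron 5 of 9 in the annotated transcript that splices it out. Another protein-coding transcript keeps it as part of an exon, it is a multiple of 3 bases long and the reading frame meets no stop codon inside it. Retention was 67.7% after WBP11 RNAi and 80.8% after SNW1 RNAi, against 56.6% in their control, and 78.7% after WBP11 auxin, set against 66.8% in the auxin control. It was thus the major form in all 5 libraries and higher in each depleted library, by 11.1 points (95% interval 6.35 to 15.7), 24.2 points (19.2 to 28.9) and 11.9 points (5.36 to 18.6). These values rest on a depth of 448 and 207 spliced reads after WBP11 RNAi, on 337 and 79 after SNW1 RNAi, and on 576 and 441 in their control, on 406 and 87 after WBP11 auxin and on 185 and 90 in the auxin control. The other TNFRSF10B introns reached at most 10.9% in any library. They are numbered here in a transcript of 8 introns, not in the one of 9 used for the 87-bp intron. After SNW1 RNAi intron 4 stood at 9.82% against 1.22% in the control, intron 6 at 9.49% against 4.14% and intron 3 at 7.70% against 2.65%, differences of 8.60, 5.34 and 5.05 points whose intervals lie above 0.

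**Figure D2:**
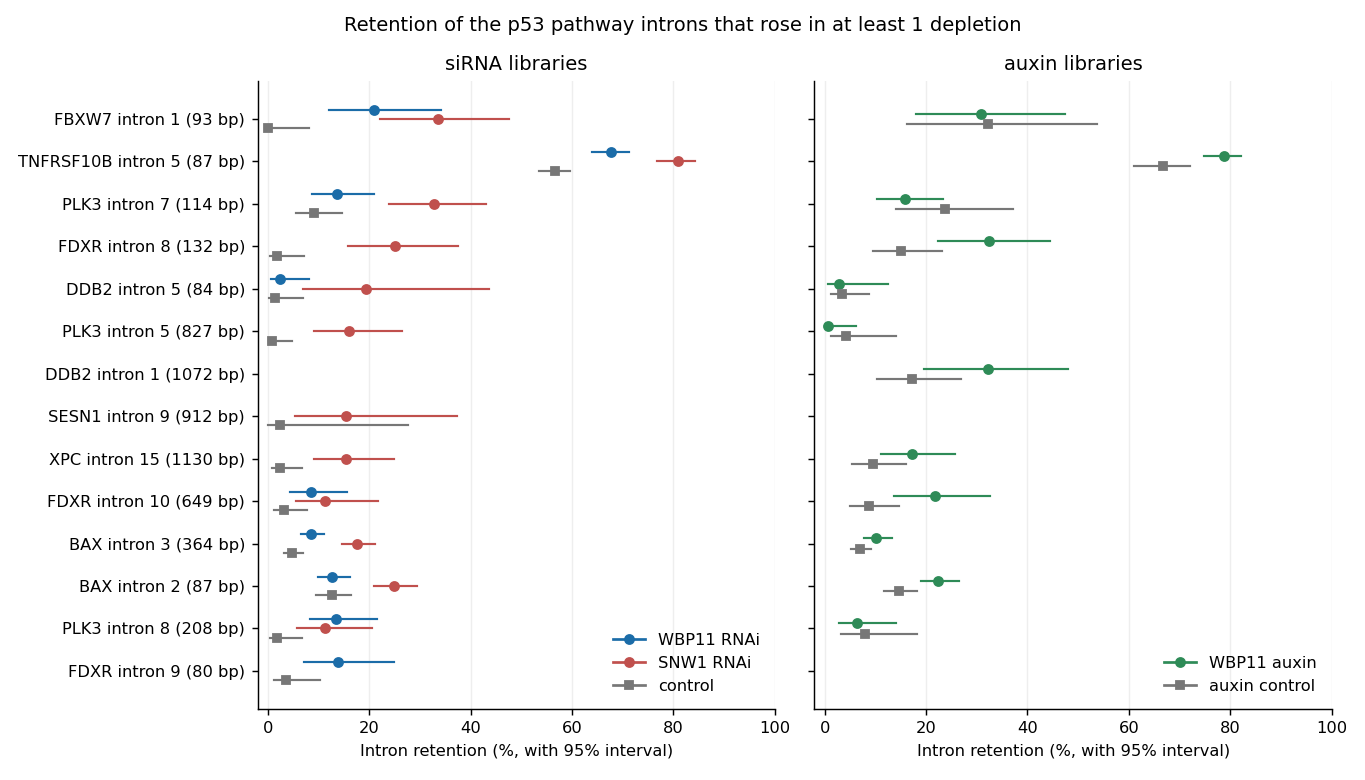
Retention in percent with Wilson 95% intervals (horizontal axis) of the 14 introns that rose in at least 1 comparison, ordered by their largest rise, with the siRNA libraries on the left and the auxin libraries on the right. Circles are depleted libraries and squares controls; a missing circle or square means that the intron was not listed in that table, and TNFRSF10B has the highest value in every library.

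BAX encodes a pore-forming protein of the mitochondrial outer membrane. Its intron 2, of 87 bp, is printed here because it is the shortest BAX intron measured and rose after SNW1 RNAi. The letters are those of the annotated transcript that keeps it, at hg38 chr19:48955600-48955686 on the plus strand, and the capitals mark the first 6 bases and the last 3, the ends that the spliceosome recognises.
BAX intron 2: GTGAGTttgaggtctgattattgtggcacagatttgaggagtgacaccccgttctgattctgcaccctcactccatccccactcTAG
The reading frame of BAX meets a stop codon that begins at base 2 of this intron. Retention of BAX intron 2 was 12.8% after WBP11 RNAi and 24.97% after SNW1 RNAi, against 12.6% in their control, and 22.5% after WBP11 auxin, set against 14.7% in the auxin control. It rose by 12.4 points after SNW1 RNAi (6.82 to 17.8), or 9.745 points minus the median difference of all introns, which is under the threshold, while the difference was 7.73 points after WBP11 auxin (2.72 to 12.7) and 0.164 points after WBP11 RNAi (-4.58 to 4.76). BAX intron 3, of 364 bp, stood at 8.62% after WBP11 RNAi and 17.6% after SNW1 RNAi, against 4.75% in their control, and at 10.2% after WBP11 auxin, set against 6.91% in the auxin control. It rose by 12.8 points after SNW1 RNAi (9.13 to 16.6). Both BAX introns were therefore higher in all 3 depleted libraries, past 10 points after SNW1 RNAi alone. The difference between the siRNAs was not tested.

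The remaining apoptosis genes had no raised intron. APAF1, which builds the apoptosome, had 3 introns below the control after WBP11 RNAi, with differences between -5.802 and -1.84 points, on 21.99 to 43.2 observations in the control, and every interval spans 0. After WBP11 auxin 3 of its 4 introns were above the auxin control, among them introns 7 and 8 by 3.71 and 4.12 points, and those intervals span 0 too. TNFRSF10A, the receptor DR4, had 4 introns between 0.970 and 1.53 points above the control after SNW1 RNAi, and its 2 measured introns differed by -1.23 and -2.44 points after WBP11 RNAi. FAS, another death receptor, had 1 intron, which stood at 3.16% after SNW1 RNAi against 0.907% in the control. BBC3, which encodes the BH3-only protein PUMA, had 1 intron in the auxin table, at 1.11% after WBP11 auxin and 1.70% in the auxin control. AEN, an apoptosis-enhancing nuclease, had its intron 3 at 8.35% after WBP11 auxin and 17.9% in the auxin control. That difference of -9.56 points (-17.8 to -2.27) is the closest of any member to a call in the downward direction. TP53I3, an oxidoreductase, stayed within 1.755 points of the control in all 3 comparisons.

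FBXW7, the substrate receptor of an SCF ubiquitin ligase, had the largest rises of all members after both siRNAs, and its control libraries differ. The intron is 93 bp long, at chr4:152535034-152535126 on the minus strand, and is intron 1 of 13 in the 5' UTR of its transcript, where it overlaps an exon of another protein-coding transcript. Retention was 21.0% after WBP11 RNAi and 33.7% after SNW1 RNAi, against 0% in their control, and 30.9% after WBP11 auxin, set against 32.1% in the auxin control. The rise was 21.0 points after WBP11 RNAi (8.88 to 34.1) and 33.7 points after SNW1 RNAi (19.5 to 47.5). The control of the siRNA libraries had 43 spliced reads and a depth of 0 there, which leaves an upper limit of 8.20% by the Wilson interval. The auxin control had 14 spliced reads and a depth of 6.63. Both siRNA rises thus rest on 1 control library with no read in the intron, in a place where the other control had the intron in about as many transcripts as the depleted libraries. The 2 other FBXW7 introns, both measured in the auxin table alone, are numbered in a different transcript, of 10 introns. Of these, intron 7 differed by 3.40 points and intron 9 by 0.153 points.

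FDXR, a mitochondrial reductase that passes electrons to ferredoxin and is a p53 target, had raised introns after every depletion, although not the same ones. The neighbouring introns 8, 9 and 10 of the 11 in its transcript were the ones involved. Intron 9, of 80 bp, is the shortest of all 92 introns together with CCNG1 intron 4, and is shown because it carries the WBP11 RNAi call. It lies at hg38 chr17:74864068-74864147 on the minus strand, and its capitals mark the same ends as above.
FDXR intron 9: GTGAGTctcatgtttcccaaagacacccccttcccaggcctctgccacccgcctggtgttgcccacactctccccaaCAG
The reading frame meets no stop codon inside this intron, but its 80 bases are not a multiple of 3, and the annotated transcript that keeps it is of the nonsense-mediated decay class. Intron 9 stood at 13.8% after WBP11 RNAi, against 3.67% in the control, a rise of 10.1 points (0.671 to 21.5) just inside the threshold, and was not listed in the other tables. Minus the median difference of all introns it was 9.37 points, which ends the only FDXR call after WBP11 RNAi. Intron 8, of 132 bp, stood at 25.2% after SNW1 RNAi, against 1.83% in the control, and at 32.4% after WBP11 auxin, set against 15.2% in the auxin control. Its rises were 23.3 points (12.6 to 35.8) and 17.3 points (4.41 to 30.5). Intron 10, of 649 bp, stood at 8.52% after WBP11 RNAi and 11.3% after SNW1 RNAi, against 3.17% in their control, and at 21.7% after WBP11 auxin, set against 8.68% in the auxin control. It rose by 13.0 points after auxin (2.98 to 24.6). All 9 FDXR values, over the 3 comparisons, were above their control, and introns of 1 gene share its RNA. Of all introns, 59.6% were above the control after WBP11 RNAi, 91.3% after SNW1 RNAi and 72.8% after WBP11 auxin. The interval spans 0 for FDXR intron 10 after WBP11 RNAi, intron 5 after SNW1 RNAi and intron 4 after WBP11 auxin.

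The repair genes DDB2 and XPC, whose proteins recognise damage for nucleotide excision repair, had raised introns. DDB2 intron 5, of 84 bp, stood at 2.36% after WBP11 RNAi and 19.4% after SNW1 RNAi, against 1.35% in their control, and at 2.94% after WBP11 auxin, set against 3.40% in the auxin control. The rise after SNW1 RNAi was 18.1 points (4.43 to 42.3), from 13 spliced reads and a depth of 3.13 in the depleted library. DDB2 intron 1, of 1072 bp, was listed in the auxin table alone, at 32.2% after WBP11 auxin and 17.1% in the auxin control, a rise of 15.04 points whose interval spans 0 (-0.813 to 32.1). XPC intron 15, of 1130 bp, stood at 15.4% after SNW1 RNAi, against 2.39% in the control, a rise of 13.0 points (5.37 to 22.7), and at 17.2% after WBP11 auxin, set against 9.50% in the auxin control. An exon of an annotated gene on the other strand lies within that XPC intron, and the strand setting of the counting is not given in the sources used here, so its reads could be counted there. Such an exon also lies within every other measured XPC intron except intron 12. The other XPC introns moved by at most 3.90 points in any comparison. POLH, a translesion DNA polymerase, and RRM2B, a ribonucleotide reductase subunit, moved by at most 1.79 points.

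PLK2 and PLK3 encode polo-like kinases that answer to stress, and between them they show both directions. PLK2 retention was below the control at all 10 introns measured after WBP11 RNAi and at all 8 measured after WBP11 auxin, and at 7 of 12 after SNW1 RNAi. None of these differences reached 10 points. Of all introns, 40.4% were below the control after WBP11 RNAi, 27.2% after WBP11 auxin and 8.68% after SNW1 RNAi. Over the 10 introns PLK2 retention ran between 1.10% and 5.88% after WBP11 RNAi, against 3.05% to 10.9% in the control, and the differences ran between -7.08 and -0.959 points with a median of -4.13. After WBP11 auxin it ran between 0.669% and 4.12%, against 1.59% to 6.34% in the auxin control, with a median difference of -2.51 points. After SNW1 RNAi it ran between 3.18% and 9.24%, against 3.05% to 10.9%, with a median difference of -0.0374 points. The interval of the difference lay below 0 at 8 of 48 member introns after WBP11 RNAi, 7 of them in PLK2, where 3.67% of all introns had such an interval. It did so at 2 of 67 after SNW1 RNAi, both in PLK2 (0.291% of all introns), and at 6 of 66 after WBP11 auxin, 3 of them in PLK2 (2.14% of all introns).

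The greatest PLK2 difference was at intron 6, of 108 bp, which stood at 3.82% after WBP11 RNAi and 5.30% after SNW1 RNAi, against 10.9% in their control, and was not listed in the auxin table. Intron 4, of 227 bp at hg38 chr5:58458172-58458398 on the minus strand, is shown as a PLK2 intron that was lower in all 3 depleted libraries and that an annotated transcript keeps, and its capitals again mark the first 6 and last 3 bases.
PLK2 intron 4: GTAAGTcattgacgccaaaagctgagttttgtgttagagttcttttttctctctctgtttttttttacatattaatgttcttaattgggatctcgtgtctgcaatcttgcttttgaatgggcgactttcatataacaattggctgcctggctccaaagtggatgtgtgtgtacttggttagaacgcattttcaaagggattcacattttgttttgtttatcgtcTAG
The PLK2 frame meets a stop codon at base 114 of this intron. Retention of intron 4 was 3.56% after WBP11 RNAi and 6.55% after SNW1 RNAi, against 9.37% in their control, and 1.57% after WBP11 auxin, set against 3.34% in the auxin control. The difference after WBP11 RNAi was -5.81 points (-11.4 to -1.44), and the intervals of the other differences span 0.

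PLK3 introns went up after the siRNAs in part of the gene and were all below the control after auxin. Intron 7, of 114 bp at hg38 chr1:44803154-44803267 on the plus strand, had the largest PLK3 rise. It overlaps an exon of a processed transcript of PLK3, from which the sequence comes.
PLK3 intron 7: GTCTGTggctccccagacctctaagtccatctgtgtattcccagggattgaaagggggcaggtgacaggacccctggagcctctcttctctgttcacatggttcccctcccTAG
Its first 6 bases differ from those of the PLK2 intron above, and the PLK3 frame meets a stop codon at base 22. Retention of intron 7 was 13.7% after WBP11 RNAi and 32.75% after SNW1 RNAi, against 9.18% in their control, and 15.8% after WBP11 auxin, set against 23.75% in the auxin control. It rose by 23.6 points after SNW1 RNAi (13.1 to 34.5). Intron 5, of 827 bp, stood at 16.01% after SNW1 RNAi against 0.914% in the control, a rise of 15.1 points (7.19 to 25.6), and at 0.711% after WBP11 auxin set against 4.25% in the auxin control. Intron 8, of 208 bp, rose by 11.8 points after WBP11 RNAi (4.46 to 19.8), with 13.55% against 1.77% in the control, and stood at 11.2% after SNW1 RNAi, 9.47 points higher and just outside the threshold. All 10 PLK3 introns of the auxin table were below the auxin control, with differences between -9.51 and -0.267 points and a median of -4.60, and the interval of each difference spans 0. The auxin control itself was high in PLK3, with 50.7 observations or fewer at introns 7, 9 and 11, where it stood at 23.75%, 23.2% and 19.1% against 9.18%, 7.52% and 3.73% in the control of the siRNA libraries. The direction in PLK3 therefore differs between the siRNA and auxin comparisons together with the level of their controls, and the share of it due to the controls was not tested.

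**Figure D3:**
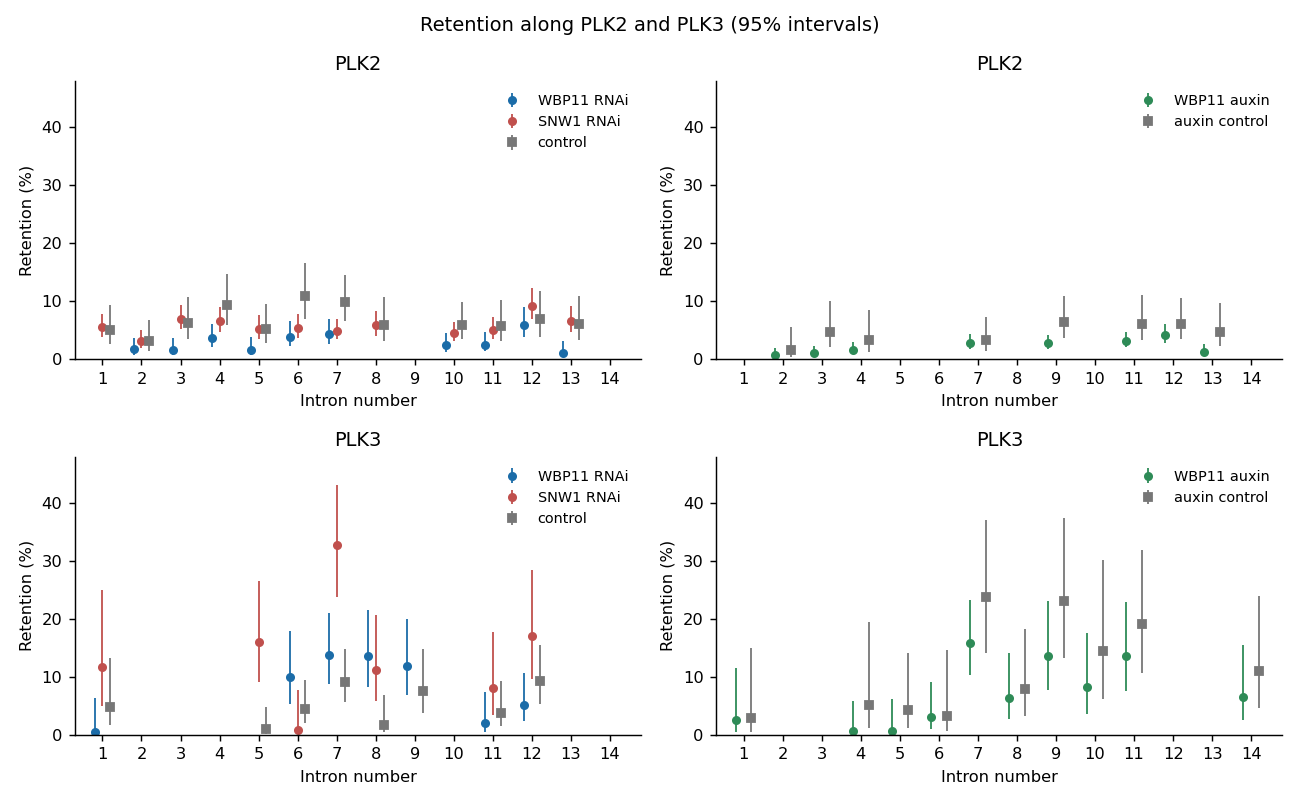
Retention in percent with Wilson 95% intervals (vertical axis) along the introns of PLK2 (top) and PLK3 (bottom), numbered in the order of the transcript, in the siRNA libraries (left) and the auxin libraries (right). Circles are depleted libraries and squares controls; PLK2 circles of both WBP11 depletions lie below the squares at every intron, and PLK3 intron 7 reaches 32.75% after SNW1 RNAi.

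The other arrest and stress genes had no intron past 10 points, apart from SESN1. GADD45A, a growth arrest protein, is shown at its intron 2, of 223 bp at hg38 chr1:67686127-67686349 on the plus strand, because the 2 controls differ there and the depletions went both ways.
GADD45A intron 2: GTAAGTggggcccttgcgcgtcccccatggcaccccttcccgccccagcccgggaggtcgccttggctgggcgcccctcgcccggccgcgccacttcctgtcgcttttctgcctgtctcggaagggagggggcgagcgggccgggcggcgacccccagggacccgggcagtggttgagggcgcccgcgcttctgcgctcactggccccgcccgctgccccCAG
This intron has 76.7% G and C bases, overlaps an annotated exon and brings a stop codon at its base 2. Retention was 1.59% after WBP11 RNAi and 10.2% after SNW1 RNAi, against 3.23% in their control, and 8.23% after WBP11 auxin, set against 15.5% in the auxin control. The differences were -1.64 points (-3.42 to 0.475), 6.96 points (4.07 to 10.2) and -7.29 points (-14.3 to -1.62). GADD45A intron 3 followed at smaller size, with differences of -1.31, 2.77 and -1.37 points.

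CDKN1A had only its intron 2 listed, in the WBP11 tables. It stood at 0.672% after WBP11 RNAi, against 1.15% in the control, and at 0.626% after WBP11 auxin, set against 3.32% in the auxin control. The difference after WBP11 auxin was -2.70 points (-7.95 to -0.0903). MDM2 was measured only in the SNW1 RNAi table, with introns 1 and 6 at 4.59% and 2.93% against 0.330% and 0% in the control, and both intervals span 0. CCNG1, cyclin G1, had its 80-bp intron 4 at 2.61% after WBP11 auxin and 0.556% in the auxin control, a difference of 2.05 points (0.107 to 4.60). BTG2, an antiproliferative gene, stood at 3.76% after SNW1 RNAi and 0.936% in the control. SERTAD1, a cell cycle cofactor, stood at 0.664% after WBP11 RNAi and 5.07% after SNW1 RNAi, against 2.14% in their control.

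The sestrins protect cells from oxidative stress and restrain mTORC1. SESN1 intron 9, of 912 bp, rose by 13.2 points after SNW1 RNAi, with 15.5% against 2.36% in the control, but it rests on 16 spliced reads after SNW1 RNAi and 12 in the control, where the depth was 0, and its interval runs from -14.1 to 35.1. The control's 2.36% is the deposited ratio, which depth over depth plus spliced reads does not give at a depth of 0. The SESN2 introns stayed within 10 points. SESN2 intron 4, of 114 bp, stood at 6.69% after WBP11 RNAi and 4.37% after SNW1 RNAi, against 0.335% in their control, with differences of 6.35 points (2.93 to 10.3) and 4.03 points (0.888 to 8.10). TIGAR, a fructose bisphosphatase, was listed under its older symbol, outside the naming rule. Its intron at chr12:4349897-4351266 stood at 1.01% after SNW1 RNAi, against 0.642% in the control, and at 2.65% after WBP11 auxin, set against 1.04% in the auxin control.

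Spliced reads across the measured introns give a view of the mature RNA of the same genes. They were taken relative to the total over all listed introns of each library, which covers these introns alone and is no measure of sequencing depth. The totals were 2987572 reads after WBP11 RNAi and 3146434 in the control, 4170988 after SNW1 RNAi and 5527186 in the control over that table's introns, and 4927556 after WBP11 auxin and 4276828 in the auxin control. Less RNA per cell and fewer cells with the RNA cannot be told apart in these bulk libraries. Spliced reads were at least 2-fold higher in 1 of 17 genes after WBP11 RNAi (3.42% of all genes), in 1 of 21 after SNW1 RNAi (7.43%) and in 5 of 21 after WBP11 auxin (10.1%). They were at least 2-fold lower in 1 of 17 (8.07% of all genes), 3 of 21 (9.29%) and 2 of 21 (7.25%). The median ratio of depleted to control over the member genes was 0.980 after WBP11 RNAi, 1.15 after SNW1 RNAi and 1.60 after WBP11 auxin, beside 1.02, 1.07 and 1.07 over all genes.

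PLK2 was the 1 member with at least 2-fold more spliced reads in all 3 depletions. It had 3241 spliced reads after WBP11 RNAi and 1674 in the control, 5847 after SNW1 RNAi and 1978 in the control, and 4619 after WBP11 auxin and 1118 in the auxin control. The ratios were 2.04 (95% interval 1.92 to 2.16), 3.92 (3.72 to 4.12) and 3.59 (3.36 to 3.83). The summed depth inside the same PLK2 introns was 95.7 after WBP11 RNAi and 124.5 in the control, 350.5 after SNW1 RNAi and 141.9 in the control, and 105.4 after WBP11 auxin and 55.1 in the auxin control. Scaled by the same totals, the intron depth of PLK2 was 0.809 times the control after WBP11 RNAi, 3.27 times after SNW1 RNAi and 1.66 times after WBP11 auxin, each time a smaller ratio than that of the spliced reads. Retention is formed from the same depth and spliced reads, so this restates PLK2 retention over the summed introns and is no separate observation.

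TP53I3 had fewer spliced reads after both siRNAs, with 20 after WBP11 RNAi and 13 after SNW1 RNAi against 66 in their control, which are ratios of 0.319 (0.183 to 0.533) and 0.261 (0.132 to 0.478). The ratio was 0.665 after WBP11 auxin, from a different intron of the gene. DDB2 had 48 spliced reads after SNW1 RNAi and 264 in the control, a ratio of 0.241 (0.173 to 0.329), and 310 after WBP11 auxin and 747 in the auxin control, a ratio of 0.360 (0.315 to 0.412), while its ratio was 1.02 after WBP11 RNAi (0.819 to 1.28). TNFRSF10B, whose short intron rose in every comparison, had ratios of 0.647 (0.614 to 0.682) after WBP11 RNAi, 0.468 (0.436 to 0.501) after SNW1 RNAi and 1.35 (1.26 to 1.45) after WBP11 auxin. FDXR had 181 spliced reads after WBP11 auxin and 347 in the auxin control, a ratio of 0.453 (0.376 to 0.543), and ratios of 0.742 and 0.681 after WBP11 RNAi and SNW1 RNAi. A rise in retention moves RNA from the spliced to the unspliced count, so the spliced reads of a gene with raised introns are not independent of its retention.

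After WBP11 auxin the members went both ways: some arrest and stress genes had more spliced reads, and others had fewer. CCNG1 had 287 after WBP11 auxin and 358 in the auxin control, a ratio of 0.696 (0.594 to 0.815). BAX and XPC were lower too, with ratios of 0.666 (0.606 to 0.733) and 0.646 (0.545 to 0.764), as were DDB2, FDXR and TP53I3, given above. BBC3 and SESN1 had ratios of 0.784 (0.586 to 1.05) and 0.796 (0.481 to 1.31). CDKN1A had 331 after WBP11 auxin and 106 in the auxin control, a ratio of 2.71 (2.17 to 3.41), beside a ratio of 0.872 (0.769 to 0.989) after WBP11 RNAi. GADD45A had 967 after WBP11 auxin and 292 in the auxin control, a ratio of 2.87 (2.52 to 3.29), beside ratios of 0.571 (0.523 to 0.623) after WBP11 RNAi and 0.820 (0.753 to 0.892) after SNW1 RNAi. SESN2 had 1144 after WBP11 auxin and 305 in the auxin control, a ratio of 3.26 (2.87 to 3.71), beside 1.17 and 1.28 after WBP11 RNAi and SNW1 RNAi. SERTAD1 had 278 after WBP11 auxin and 118 in the auxin control, a ratio of 2.05 (1.64 to 2.56), beside 1.03 and 1.72 after WBP11 RNAi and SNW1 RNAi. CDKN1A, GADD45A, SESN2 and SERTAD1 thus passed 2-fold after WBP11 auxin; none of them did so in an siRNA comparison where it was measured, and SERTAD1 came to 1.958 after WBP11 auxin when the median ratio of all introns was set to 1. The 2 control libraries differ in these genes as well as the depleted ones, since CDKN1A had 553 spliced reads in the control of the siRNA libraries and GADD45A 1447, and the part of the controls was not tested. TNFRSF10A, APAF1, AEN and SESN2 were also above their control in all 3 depletions, below 2-fold except for SESN2 after WBP11 auxin. TNFRSF10A had ratios of 1.86 (1.57 to 2.19), 1.64 (1.48 to 1.82) and 1.90 (1.69 to 2.13).

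**Figure D4:**
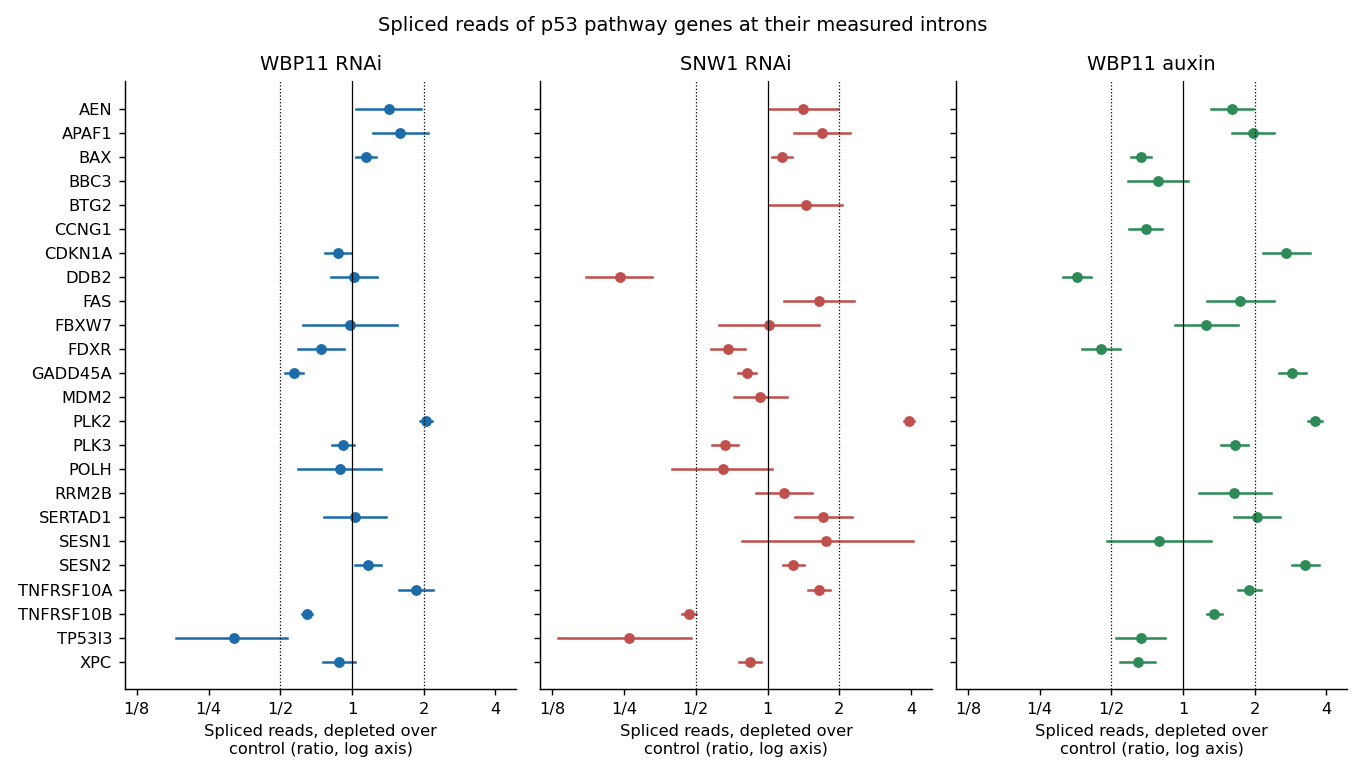
Ratio of spliced reads, depleted over control, on a log axis for each p53 pathway gene with a measured intron, with exact 95% intervals for counting error and dotted lines at 2-fold higher and lower. PLK2 lies at 2.04, 3.92 and 3.59 in the 3 comparisons, while DDB2 lies at 0.241 after SNW1 RNAi and 0.360 after WBP11 auxin.

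Other genes of the pathway were counted in 3 lists. Of 36 regulators of p53, 23 had a measured intron after WBP11 RNAi, and 4 of their 70 introns rose. After SNW1 RNAi 6 of 124 introns rose and after WBP11 auxin 6 of 116. Of 63 other target and response genes, 4 of 88 introns rose and 1 fell after WBP11 RNAi, 14 of 127 rose after SNW1 RNAi and 15 of 100 after WBP11 auxin. Of 33 cell cycle and apoptosis partners, 1 of 27, 5 of 49 and 2 of 40 introns rose. Of these 9 shares, that of the response genes after WBP11 auxin alone was above the background of 13.8% in that comparison, and the regulators after SNW1 RNAi stood at 4.84%, where 16.6% of all introns rose.

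TRAF4, a signalling adaptor, had the largest rise of these lists after WBP11 auxin, at an 87-bp intron that stood at 80.7% after WBP11 auxin, set against 10.8% in the auxin control, and at 46.4% after WBP11 RNAi, against 7.91% in the control. TRIM28, a corepressor that binds MDM2, had a 77-bp intron at 53.6% after WBP11 auxin, set against 2.51% in the auxin control, a rise of 51.1 points (48.8 to 53.3). ATM, the kinase that signals DNA breaks to p53, had a 79-bp intron at 48.0% after WBP11 RNAi, against 0% in the control, from 13.45 and 29 observations. SLC19A2, a thiamine transporter, rose by 32.5 points after WBP11 RNAi, TP73, a p53 relative, by 23.5 points with an interval that spans 0, and TP53BP1, which binds p53 and sites of DNA breaks, by 12.6 points. TP53BP1 also rose by 25.2 points after SNW1 RNAi at another intron, with 35.4% against 10.2% in the control. The other leading rises after SNW1 RNAi were in TP53INP2 (29.9 points), PPP1R13L, which encodes the p53 inhibitor iASPP (29.4 points), DFFB (27.0 points) and CES2 (24.7 points). After WBP11 auxin AMZ2 rose by 37.2 points, TSC2 by 26.7 points and PIDD1 by 26.7 points. TSC2 held the 1 fall of these lists, at a different intron after WBP11 RNAi, with 5.62% against 18.3% in the control (-12.65 points, -25.4 to 1.48).

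The 2 controls were themselves not alike at these introns. Of 46 member introns measured in both, retention was higher in the auxin control at 32, with a median difference of 1.14 points, and 7 were higher by at least 10 points and none lower by as much. The same counts were not taken over all introns, so whether this gap is particular to the members was not tested. The 7 were FBXW7 intron 1, PLK3 introns 7, 9 and 11, FDXR intron 8, GADD45A intron 2 and the 87-bp intron of TNFRSF10B. FDXR intron 8 stood at 15.2% in the auxin control and 1.83% in the control of the siRNA libraries. Levels after siRNA and after auxin are therefore comparable only through their own control, and the siRNA comparisons, which share theirs, are not independent of each other.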

How the data were processed

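The 3 deposited tables each join 1 depleted library with 1 control. Per the file headers, the authors ran IRFinder on STAR output of an RSEM run with hg38. RSEM, bedtools and hg38 also stand in the submitters' processing notes, with no versions. The retention ratio is deposited as a fraction, the intron depth as a coverage signal and the spliced reads as a count. The ratio equalled depth over depth plus spliced reads within 1 point for 93.4% to 97.9% of introns, and the deposited ratio was used. Among members the largest gap was 5.82 points, in the WBP11 auxin library, and some deposited ratios are above 0 where the depth is 0. IRFinder's warnings were kept as information, and every listed intron had none in at least 1 of its 2 libraries.

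Introns with depth plus spliced reads of at least 10 in both libraries were tested; differences of at least 10 points were called. Members were matched to GENCODE release 29 for position, and intron sequences were read from annotated transcripts that keep the intron. Genes were named if they are members, targeted genes, or among the 5 largest rises and 2 largest falls per comparison of the 3 other lists. The members, lists and tests were chosen with earlier results of these data known. Depths ran between 12.0 and 1302 observations per member intron. Calls and intervals were tested on simulated data. Alternatives covered size rules, depth minimums, exact spliced reads, warnings, the known-exon mark, centring, 1 intron per gene and scalings. Calculations used Python 3.11.15, pandas 2.3.3 and scipy 1.17.1.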

Additional observations from a re-analysis of the deposited data

How the results depend on the processing

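No paired analysis was possible because each group is 1 library. Counts of raised member introns, 4 after WBP11 RNAi, 10 after SNW1 RNAi and 4 after WBP11 auxin, kept within 1.5 times under depth minimums of 20 and 50 or none, exact spliced reads, median centring, intervals that exclude 0, and TIGAR counted under its older symbol (added after seeing the data). They moved with the size rule, over 48, 67 and 66 member introns. At 5 points 7, 20 and 8 rose, beside 17.4%, 32.2% and 24.7% of all introns. At that size 5, 1 and 6 fell, beside 5.41%, 1.04% and 3.97% of all introns. At 20 points 1, 4 and 0 rose, in 1, 4 and 0 genes, beside 3.53%, 6.49% and 6.38% of all introns. With a log2 ratio of 1 and a pseudocount of 0.01, 8, 31 and 8 rose, beside 27.5%, 57.4% and 36.0% of all introns. By the same rule 11, 2 and 11 fell, beside 12.9%, 1.54% and 6.3%. Genes with a raised intron then numbered 14 after SNW1 RNAi and 5 after WBP11 auxin, also 5 there at 5 points. Without warnings 2, 4 and 1 introns rose of the 17, 30 and 24 left, beside 8.96%, 16.6% and 15.9% of all such introns. Of the 18 rises, 11 carried a warning in the depleted or control library, among them both rises of FDXR intron 8. Without introns marked as a known exon 1 of 41 rose after WBP11 RNAi, since FBXW7, FDXR and TNFRSF10B drop out, beside 8.5% of all introns. With 1 intron per gene 1 of 17, 5 of 21 and 0 of 21 rose, beside 5.92%, 11.1% and 10.3% of all introns so chosen. Centring on the median of all introns made 2 of 66 introns fall after WBP11 auxin, beside 1.83% of all introns. The cause of the moved counts beyond fewer introns was not tested. The summed spliced reads of the members, 1.0, 1.335 and 1.596 times the control, became 1.03, 1.26 and 1.53 with the median ratio of all introns set to 1, and 0.812, 0.827 and 1.25 without PLK2. That scaling left 4 genes 2-fold higher after WBP11 auxin, without SERTAD1 (1.958). Of 36 recomputed values of the raised introns, 36 lay within the interval first given and 34 were still at least 10 points. The other 2, FDXR intron 9 after WBP11 RNAi (9.37) and BAX intron 2 after SNW1 RNAi (9.745), fell short under median centring. Depth limits these calls: 2 of the 18 rises, DDB2 intron 1 and SESN1 intron 9, have intervals that span 0.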
